A study of Mus musculus with 58 samples.

Results

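Srm, Slc20a1, Mtss1 and Irf2bp2 were the genes outside the circadian clock with the most BMAL1 peaks in the deposited lists. BMAL1 and CLOCK binding had been mapped by chromatin immunoprecipitation and sequencing (ChIP-seq) in NIH3T3 cells and in mouse liver. Members were all peaks that the authors had annotated to these 4 genes in the BMAL1 lists, each gene having 4 or more peaks in one list, together with every CLOCK peak centred within 5 kb of them. This gave 10 of 463 BMAL1 peaks in NIH3T3 cells and 17 of 1254 in liver, which were 18 distinct intervals, and 0 of 1016 CLOCK peaks in NIH3T3 cells and 2 of 439 in liver. The genes were chosen by their number of BMAL1 peaks in these same lists, so that number is described here and not tested.

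NIH3T3 is a mouse embryonic fibroblast line, and its clocks had been synchronised by 100 nM dexamethasone for 30 minutes. Its BMAL1 list belonged to 7 libraries taken 12 to 38 h later, although the name of the list gave 20 h alone, and its CLOCK list to 6 libraries taken at 18 to 38 h. The liver BMAL1 list had been reprocessed by the authors from earlier libraries of zeitgeber time 6. CLOCK in liver was represented by 1 sample, labelled as pooled, from C57/BL6 mice aged 12 to 14 weeks with no time given. No knockout, untreated or input peak list was used, and the lists held positions alone, with no height, score or value per library. Replicate error, depth and strength of binding are therefore unknown, and a site missing from a list was not read as unbound.

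BMAL1 and CLOCK are partner proteins of the basic helix-loop-helix family that bind DNA together, typically at the E-box CACGTG, and switch on the genes of the clock, including those of their own repressors. In liver they are also known to bind near many genes of metabolism. The 4 genes encode proteins of different kinds, and a common pathway was not looked for. Srm encodes spermidine synthase, which makes the polyamine spermidine from putrescine. Slc20a1 encodes PiT-1, a sodium-coupled phosphate transporter of the plasma membrane. Mtss1 encodes an I-BAR domain protein that links curved membrane to actin, and Irf2bp2 encodes a corepressor first known as a partner of the transcription factor IRF2.

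The genes formed 2 pairs by where their peaks lay. Srm and Slc20a1 had dense groups of peaks around their start sites in both NIH3T3 cells and liver. Mtss1 and Irf2bp2 had no peak in the NIH3T3 list, and their liver peaks lay 3084 to 142540 bp from the start site. All 27 entries of these genes were 50 bp wide, a width shared by 63.3% of NIH3T3 and 83.7% of liver BMAL1 peaks.

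**Figure D1:**
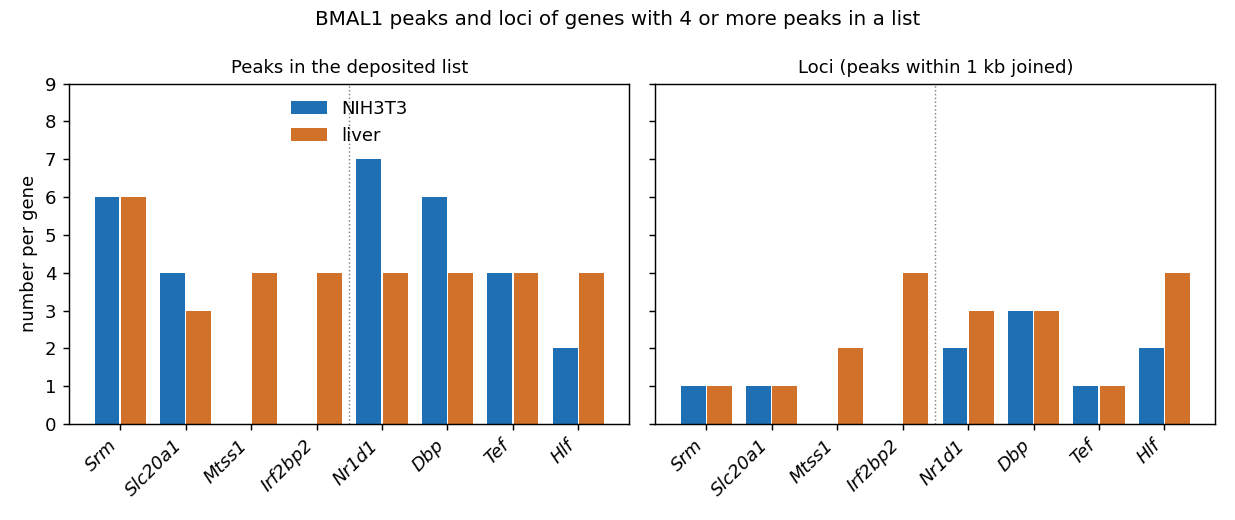
BMAL1 peaks (left) and loci after joining peaks centred within 1 kb of a neighbour (right), as numbers per gene, in NIH3T3 cells (blue) and liver (orange), for the 4 genes and, right of the dotted line, the clock genes with 4 or more peaks in a list. Srm stands at 6 peaks and 1 locus in each context, while Irf2bp2 stands at 4 peaks and 4 loci in liver.

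Few genes had as many peaks. In NIH3T3 cells 5 of 345 genes (1.45%) had 4 or more, namely Nr1d1, Dbp, Tef, Srm and Slc20a1. In liver 7 of 985 genes (0.711%) did, namely Srm, Dbp, Hlf, Irf2bp2, Mtss1, Nr1d1 and Tef. Just outside the threshold, with 3 peaks, were 13 genes in NIH3T3 cells and 35 in liver. Those of NIH3T3 cells not counted here as clock or clock output genes included Wee1, Pcsk4, Napa, Nup50, 2410080I02Rik and 0910001L09Rik. Slc20a1 itself reached the threshold through its NIH3T3 peaks, which numbered 4, while its liver peaks numbered 3. When peaks centred within 1 kb of a neighbour were joined into loci, Srm and Slc20a1 had 1 locus each in either context. Joining left Mtss1 with 2 loci and Irf2bp2 with 4 in liver. Over all genes, 2 or more loci were found for 11 of 345 genes in NIH3T3 cells (3.19%) and 70 of 985 in liver (7.11%). Hlf, a clock output gene, was the other liver gene with 4 loci, and no NIH3T3 gene had more than 3.

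The same 6 BMAL1 peaks were listed for Srm in both contexts, and no gene had more in the liver list. On chromosome 4 (mm9) they covered 147965448 to 147965497, 147965518 to 147965567, 147965812 to 147965861, 147965899 to 147965948, 147966012 to 147966061 and 147966111 to 147966160. The whole group spanned 663 bp between the outer centres. Neighbouring centres were 70, 294, 87, 113 and 99 bp apart, so that 4 of the 5 gaps were shorter than the sonicated fragments, whose size the labels give as about 250 bp.

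The authors' distances for Srm referred to different start sites 415 bp apart. The first pair of peaks lay 140 and 70 bp upstream of the one at 147965612. The other peaks lay 191 and 104 bp upstream and 9 and 108 bp downstream of the one at 147966027. Every Srm peak was thus within 191 bp of an annotated start site, at a median distance of 106 bp. Over the whole lists the median was 219 bp in NIH3T3 cells and 2182 bp in liver. No peak annotated to another gene lay within 100 kb of Srm in either BMAL1 list, although Exosc10 and Masp2 are its nearest protein-coding neighbours in the RefSeq gene order.

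BMAL1 peaks at Slc20a1 numbered 4 in the fibroblasts and 3 in liver, all centred upstream of a single start site at 129024500 on chromosome 2 (mm9). The peaks in both lists covered 129024033 to 129024082, 129024183 to 129024232 and 129024386 to 129024435, which was 443, 293 and 90 bp upstream. The fourth, in the NIH3T3 list alone, covered 129024463 to 129024512, with its centre 13 bp upstream, and so spanned the start site. Its centre was 77 bp from that of the nearest liver BMAL1 peak, and the intervals did not overlap. The peaks spanned 430 bp in NIH3T3 cells and 353 bp in liver, with gaps of 150, 203 and 77 bp between neighbouring NIH3T3 centres.

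**Figure D2:**
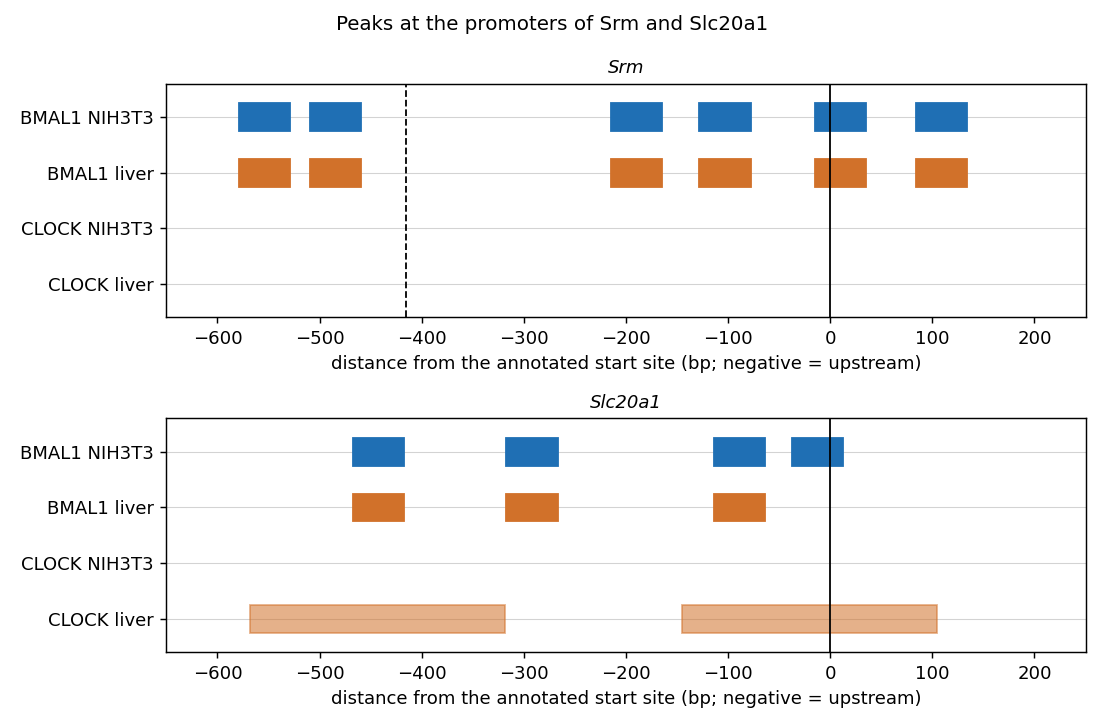
BMAL1 and CLOCK peaks of NIH3T3 cells (blue) and liver (orange) against the distance in bp from the annotated start site of Srm (top; the dashed line is its other start site) and Slc20a1 (bottom). Boxes are peak intervals to scale. The Srm peaks are the same in both contexts, with no CLOCK peak, while 2 liver CLOCK peaks of 250 bp stand at Slc20a1.

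The promoter of Slc20a1 is shown because BMAL1 and CLOCK peaks met there. The RefSeq window (GRCm38.p6, plus strand, chr2:129198523-129198822) runs from 250 bases before the gene's first base to 50 bases from it, with CACGTG in capitals.
Slc20a1 promoter: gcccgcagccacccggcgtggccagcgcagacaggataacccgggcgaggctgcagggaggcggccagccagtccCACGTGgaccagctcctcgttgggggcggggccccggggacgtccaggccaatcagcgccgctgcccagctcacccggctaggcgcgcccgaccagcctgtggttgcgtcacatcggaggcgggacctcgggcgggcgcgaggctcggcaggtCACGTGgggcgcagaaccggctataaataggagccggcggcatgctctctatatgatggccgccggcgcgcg

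This window held CACGTG at 2 places, 153 bp apart. Counting the first base of the gene as 0, they covered -175 to -170 and -22 to -17. The motif reads the same on both strands, and the related letters CACGTT and AACGTG were absent from this window. Of all 32851 RefSeq promoter windows of this length, 7.15% held CACGTG and 0.594% held it at 2 or more places. A second Slc20a1 window further downstream in the RefSeq table and the single Irf2bp2 window held none of these motifs. Srm and Mtss1 were not analysed for motifs. Among genes with a BMAL1 peak from 250 bp before to 50 bp after the start site and an entry in the table, which include Slc20a1, 88 of 131 (67.2%) in NIH3T3 cells and 108 of 199 (54.3%) in liver held CACGTG, against 8.09% of all genes. The motif stood at 2 or more places in a window for 33 of these genes (25.2%) in NIH3T3 cells and 36 (18.1%) in liver.

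Measured from the authors' mm9 start site, the NIH3T3 BMAL1 peak nearest to the Slc20a1 start site covered -37 to 12. The -22 to -17 motif would lie inside it if both annotations start the gene at the same base, which was not tested. The other motif, at -175 to -170, would fall between the peaks at -293 and -90 bp. These are letters in a window and not measured binding sites. On the same assumption, the BMAL1 peaks at -443 and -293 bp and the liver CLOCK peak at -444 bp would lie outside the window.

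CLOCK stood at Slc20a1 in liver and at none of the other genes in either context. The liver CLOCK peaks covered 129023932 to 129024181 and 129024355 to 129024604 on chromosome 2, with centres at -444 and -21 bp from the start site. The first centre was 1 bp from that of the BMAL1 peak at -443 bp. The second was 69 bp from the BMAL1 peak at -90 bp and 8 bp from the NIH3T3 BMAL1 peak at -13 bp. With a limit of 500 bp between centres, all 3 liver BMAL1 peaks of Slc20a1 had a liver CLOCK peak, and these were the 3 of 17 liver peaks of the 4 genes that did. The share over all liver BMAL1 peaks was 4.31%, and without peaks of clock and clock output genes it was 2.23%. Several BMAL1 peaks at Slc20a1 shared a CLOCK peak, so these counts are not independent sites.

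In NIH3T3 cells none of the 10 BMAL1 peaks of Srm and Slc20a1 had a CLOCK peak within 500 bp or within 5 kb, whereas 22.0% of all NIH3T3 BMAL1 peaks had one within 500 bp. Without peaks of clock and clock output genes that share was 16.7%, or 70 of 420. The 10 peaks formed 2 loci, so they are not independent sites. The nearest NIH3T3 CLOCK peak was 245035 bp from Slc20a1 and 5336986 bp from Srm. Of the 17 liver BMAL1 peaks of the 4 genes, 0 had an NIH3T3 CLOCK peak within 500 bp, with 6.54% over the whole liver list. In liver the nearest CLOCK peak was 1540752 bp from Srm, 373709 bp from Mtss1 and 22442375 bp from Irf2bp2. Slc20a1 thus had CLOCK peaks in the liver list and none in the NIH3T3 list, although the NIH3T3 CLOCK list was the longer one. That contrast rests on a pooled liver sample and on lists whose calling and filtering are unknown, with intervals of 50 bp in NIH3T3 cells and 250 bp in liver, and was not tested.

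**Figure D3:**
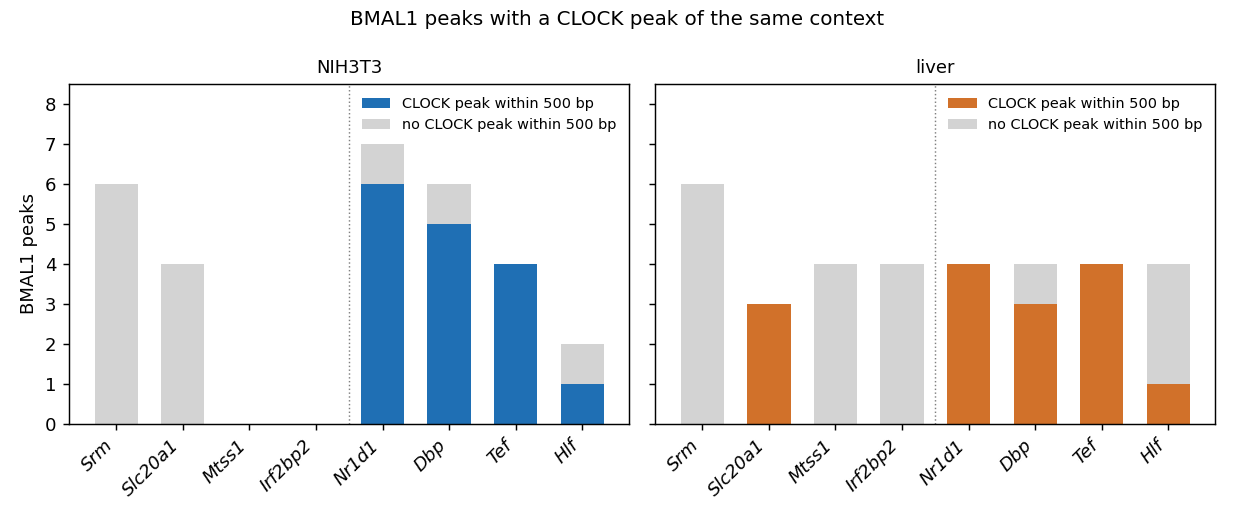
Numbers of BMAL1 peaks with (coloured) and without (grey) a CLOCK peak of the same context within 500 bp, in NIH3T3 cells (left) and liver (right), for the 4 genes and, right of the dotted line, the clock genes with 4 or more BMAL1 peaks in a list. In liver Slc20a1 has CLOCK at all 3 of its peaks, and Srm has it at none of its 6 in either context.

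Genes with similar numbers of BMAL1 peaks differed widely in CLOCK. In NIH3T3 cells Srm and Slc20a1 had CLOCK at 0 of 10 peaks, set beside 15 of 17 for the clock genes with 4 or more peaks, Nr1d1, Dbp and Tef. Peaks of a gene shared loci, 1 each for Srm, Slc20a1 and Tef, 2 for Nr1d1 and 3 for Dbp, so they are not independent sites. Of the 18 NIH3T3 genes with 3 or more peaks, 6 had no CLOCK at any of them, among them Srm, Slc20a1, Napa, Pcsk4 and 0910001L09Rik. Nup50 and Wee1, also not counted here as clock or clock output genes, had it at all 3 of their peaks. Together the 7 NIH3T3 genes with 3 or more peaks that were neither clock genes nor Srm and Slc20a1 had it at 7 of 21 peaks. In liver 42 genes had 3 or more BMAL1 peaks. CLOCK was found at 3 of 17 peaks for the 4 genes described here, all of Slc20a1, at 25 of 34 for 10 clock and clock output genes, and at 0 of 84 for the other 28 genes. Over the whole liver list, 24 genes outside the clock had CLOCK at a BMAL1 peak, 22 of them at a single peak. Igsf8 had it at 2 peaks and Slc20a1 at 3, but those 3 formed 1 locus. Counted instead by liver CLOCK peaks within 5 kb of their liver BMAL1 peaks, Slc20a1 and Gm15904 had 2 each and Igsf8 had 1. No test of these differences was made, since the genes were chosen with results of these lists known.

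Mtss1 had 4 liver BMAL1 peaks in 2 places. A group of 3 neighbouring entries on chromosome 15 (mm9) covered 58830962 to 58831011, 58831179 to 58831228 and 58831405 to 58831454. They lay 41166, 40949 and 40723 bp downstream of the start site at 58872152, with centres 217 and 226 bp apart. The remaining peak, 58875518 to 58875567, lay 3390 bp upstream, and 44113 bp separated it from the others. Whether the downstream group is exonic or intronic was not determined, because no mm9 gene models were used. Outside Mtss1 the nearest BMAL1 peaks were annotated to Trib1, at 684497 bp in the NIH3T3 list and 608949 bp in the liver list.

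Irf2bp2 had 4 liver BMAL1 peaks, each in a place of its own, over 145624 bp of chromosome 8 (mm9). The peak nearest to the start site at 129117336 covered 129114228 to 129114277, 3084 bp downstream. The others lay upstream, at 129138128 to 129138177 (20816 bp), 129227764 to 129227813 (110452 bp) and 129259852 to 129259901 (142540 bp). Gaps between neighbouring centres were 23900, 89636 and 32088 bp. The authors' gene column was the sole link between these distant peaks and Irf2bp2, so an assignment to another gene cannot be told apart from it.

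**Figure D4:**
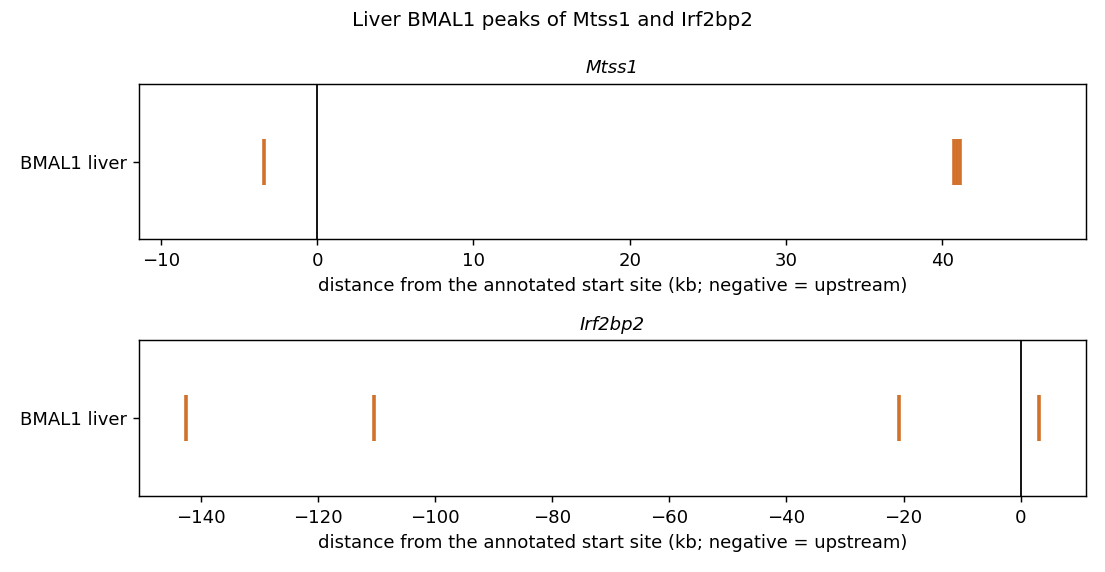
Centres of the liver BMAL1 peaks of Mtss1 (top) and Irf2bp2 (bottom) against the distance in kb from the annotated start site (black line). The mark near 41 kb at Mtss1 is 3 peaks within 443 bp of one another, and the 4 peaks of Irf2bp2 spread over 145624 bp.

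The pairs of genes also differed in what they shared with the rest of the lists. All 10 NIH3T3 peaks of Srm and Slc20a1 had a liver BMAL1 peak within 500 bp, set beside 59.2% of all NIH3T3 peaks. In liver 9 of the 17 peaks had an NIH3T3 partner, namely all of Srm and Slc20a1 and none of Mtss1 and Irf2bp2, set beside 21.8% of all liver peaks. These 9 were identical entries of the 263 with which both lists began, as were 56.8% of NIH3T3 and 21.0% of liver peaks, and the lists may not have been called independently. The 10 NIH3T3 peaks formed 2 loci and the 17 liver peaks 8, of which Srm and Slc20a1 held 1 each. These counts are therefore not of independent sites. The NIH3T3 peak at the start site of Slc20a1 came later in its list. It was 1 of 11 among the 200 NIH3T3 entries after the identical ones to have a liver peak within 500 bp.

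By position, 10 of 10 NIH3T3 peaks and 9 of 17 liver peaks of the 4 genes were promoter peaks, no more than 1 kb from a start site, with 71.7% and 44.7% over the whole NIH3T3 and liver lists. More than 10 kb away were 3 of 4 peaks of Mtss1 and 3 of 4 of Irf2bp2, and 32.3% of all liver peaks. Another peak of the same list lay within 250 bp for 10 of 10 NIH3T3 peaks and 12 of 17 liver peaks of the 4 genes, with 28.3% and 13.6% over the whole lists. Since genes were chosen for many peaks, nearby peaks follow in part from that choice. The 10 NIH3T3 peaks formed 2 loci and the 17 liver peaks 8, so they are not independent sites. All 9 liver promoter peaks lay in 1 locus each of Srm and Slc20a1.

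Dense groups like those of Srm, which spanned 663 bp, and of Slc20a1, which spanned 430 bp in NIH3T3 cells and 353 bp in liver, were also the usual form among other genes with several peaks. Leaving out the 4 genes, 69 of 80 NIH3T3 genes with 2 or more peaks (86.2%) and 96 of 164 liver genes (58.5%) had them all within 1 kb, with median spans of 215.5 and 406 bp. Mtss1 spanned 44556 bp and Irf2bp2 145624 bp in liver, where 19 of the 164 other genes spanned more than 40 kb and 3 of them 100 kb or more.

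**Figure D5:**
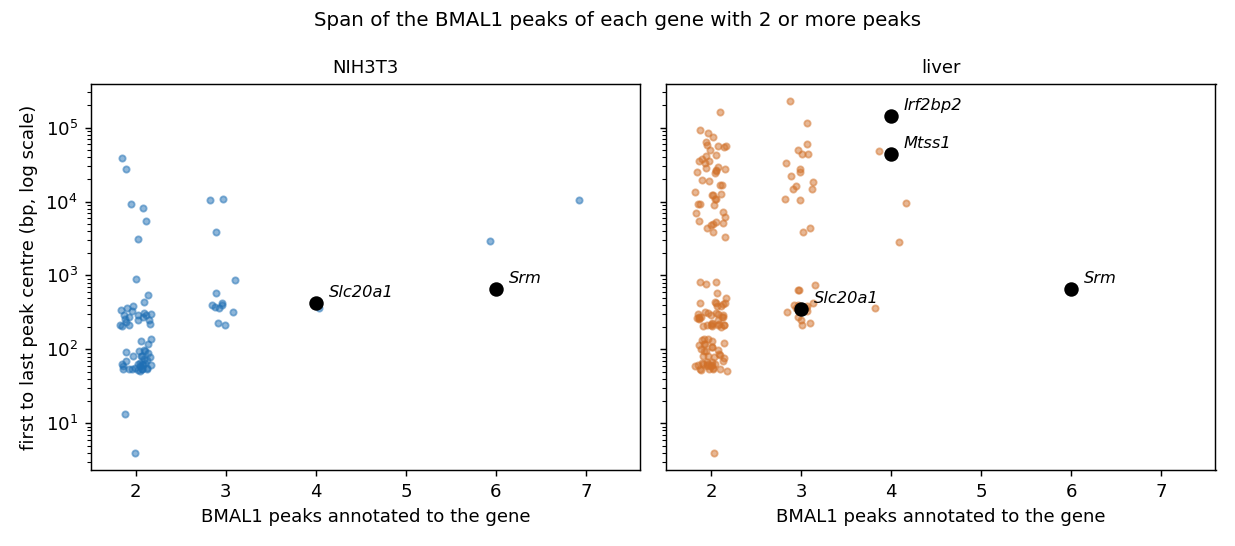
Distance in bp (log axis) between the outermost BMAL1 peak centres of each gene with 2 or more peaks, against its number of peaks, in NIH3T3 cells (left) and liver (right). Black points are the 4 genes and coloured points, spread sideways for legibility, are all others. Srm and Slc20a1 sit below 1000 bp, while Mtss1 and Irf2bp2 sit at 44556 and 145624 bp.

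Genes that act with these 4 were looked up in the authors' gene column. Of 22 symbols of polyamine metabolism besides Srm, 0 had a BMAL1 peak in NIH3T3 cells and 4 had one in liver. Over all protein-coding genes of the RefSeq table, 1.26% were named at an NIH3T3 peak and 3.51% at a liver peak. Odc1 encodes ornithine decarboxylase at the entry of the pathway. It had liver peaks 222 bp upstream and 251 bp downstream of different annotated start sites. The peaks covered 17551433 to 17551482 and 17552013 to 17552074 on chromosome 12 (mm9). Azin1, which encodes the antizyme inhibitor that protects ornithine decarboxylase, had 3, at 153, 49342 and 49955 bp upstream. Agmat (agmatinase) had 1 at 4579 bp and Arg1 (arginase) 1 at 21129 bp upstream. None of these 7 peaks had an NIH3T3 BMAL1 or a liver CLOCK peak within 500 bp. Over all liver BMAL1 peaks these shares were 21.8% and 4.31%. The 3 peaks of Azin1 formed 2 loci, so the 7 peaks are not independent sites. Among Srm and the genes of this list, Srm alone had BMAL1 peaks in both lists. It was chosen for its number of peaks and the other genes were not, so this contrast follows in part from that choice. The 6 peaks of Srm were identical entries of the 263 that opened both lists, which may not have been called independently.

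Of 11 symbols of phosphate transport besides Slc20a1, 0 had a peak in NIH3T3 cells and 1 in liver, Slc17a2, at 35 bp upstream. No peak was annotated in either list to the 4 other I-BAR genes related to Mtss1. Among 5 symbols linked to Irf2bp2, 0 had a peak in NIH3T3 cells and 1 in liver, Irf2 itself, at 65063 bp downstream of its start site. Over all protein-coding genes of the RefSeq table the shares with a peak were 1.26% in NIH3T3 cells and 3.51% in liver. With so few genes per list these counts are descriptions.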

How the data were processed

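The 4 deposited peak lists held peaks of BMAL1 and CLOCK in NIH3T3 cells and in liver. Per the submitters' processing notes the build was mm9, and Bowtie, SAMtools and bedtools were named without roles. Peak caller and thresholds were not given in the sources used here. Per peak, the authors deposited start, end, gene and signed distance in bp for the BMAL1 lists, with no other value per peak. Starts are printed counting from 1. CLOCK peaks were assigned to the genes by position, and the gene column of the NIH3T3 CLOCK list named 0 peaks for each of the 4 genes. Start sites were computed from the peak centres and the authors' distances. Peaks were partners where centres lay within 500 bp, at a promoter within 1 kb of the start site, and 1 locus where neighbouring centres lay within 1 kb. Depth is unknown, so precision was described by counts alone, and no test was made. The members, gene lists and the rule to name all their peaks and genes were chosen with earlier results of these data known. Promoters and gene names came from RefSeq tables of GRCm38.p6, which held all 42 symbols of the pathway lists and promoters for 2 of the 4 genes. Counting was checked on simulated data. Some genes covered by the rule are not reported here by name. RNA, RNA polymerase II and input samples were left out. Python 3.11.15, NumPy 2.4.6, pandas 2.3.3 and matplotlib 3.10.9 were used.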

Additional observations from a re-analysis of the deposited data

How the results depend on the processing

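Of 31 alternatives, 30 left a count within 1.5 times its reported value. These covered partner limits of 200 and 1000 bp, overlap by 1 bp, identical intervals, promoter limits of 200 bp and 5 kb, CLOCK within 2 or 20 kb and the wider E-box. The exception was joining peaks within 200 bp in place of 1 kb, which gave 4 loci for Srm and Slc20a1 in NIH3T3 cells in place of 2, because their gaps of 294 and 203 bp then divide the groups. Joining within 250 bp, chosen after seeing the data, gave 3, which was exactly 1.5 times and was counted as within. In liver the 4 genes had 8 loci, and 12 when joined within 200 bp, a change of exactly 1.5 times that was counted as within. Requiring overlap left CLOCK at 2 of the 3 liver peaks of Slc20a1, another change of exactly 1.5 times counted as within. Some counts had little room to move, since CLOCK at the NIH3T3 peaks was 0 at every limit and 9 shared peaks were identical entries. Stricter score limits and left-out libraries could not be tried, since the lists hold neither scores nor libraries. No paired analysis was possible because the lists hold no value per sample.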

Other observations

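Beyond the outermost Irf2bp2 peak, the next BMAL1 peak in either list was annotated to Tomm20, which encodes an import receptor of the mitochondrial outer membrane and follows Irf2bp2 in the RefSeq order of protein-coding genes. It covered 129469853 to 129469902 on chromosome 8 (mm9) in both lists, 210001 bp from that peak. Both NIH3T3 BMAL1 peaks of Tomm20 had an NIH3T3 CLOCK peak within 500 bp, and no liver CLOCK peak lay within 100 kb.

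Near Slc20a1, a liver BMAL1 peak annotated to 9830144P21Rik lay at 129058404 to 129058453 on chromosome 2 (mm9), -2113 bp from that gene's start site and 33941 bp from the nearest Slc20a1 peak. It was the single BMAL1 peak annotated to another gene within 100 kb of any peak of the 4 genes.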
